A study of Mus musculus with 35 samples.

Results

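The livers of 5 mice taken 3 days after ENU treatment (post-treatment day, PTD, 3) were compared with those of 5 mice taken 1 day after the same treatment (PTD 1). The arrays were chosen by their titles, and these 10 mice are 10 of the 35 in the series. All 10 were females that received, at 6 months of age, a single intraperitoneal dose of N-ethyl-N-nitrosourea (ENU) at 120 mg/kg, so that only the time after injection separates the groups by their labels. According to the study's methods they were Big Blue mice, a line that carries a reporter transgene for scoring mutations. The other 25 arrays came from ENU-treated livers of PTD 7, 15, 30 and 120 and from 7 mice given the vehicle dimethylsulfoxide (DMSO), labelled day 1 or day 30. The labels put 3 vehicle mice on day 1 and 4 on day 30, while the study's methods give 4 and 3. The labels are used here. The design holds vehicle mice of days 1 and 30 and none of day 3, so a change between PTD 1 and PTD 3 that would also follow an injection of vehicle cannot be told apart from one that follows ENU. Each array is a separate mouse, and the tissue is whole liver, in which fewer cells of a type and less RNA per cell cannot be told apart.

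A miRNA is a short RNA that pairs with target mRNAs, mainly through its seed near the 5′ end, and lowers their translation or stability, so that miRNAs with the same seed share many predicted targets. ENU transfers an ethyl group to DNA bases, a lesion that is met by DNA repair, by cell cycle arrest and cell death under the control of p53, and later by the replacement of lost cells. Transcription of the miR-34 genes rises when p53 binds near them, and the mature miRNAs lower cyclins, cyclin-dependent kinases and Bcl2. In normal liver, miR-122 is by far the most abundant miRNA and marks hepatocytes, and miR-192, miR-194 and miR-148a are abundant in the same cells.

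The sequences of the miRNAs that carry the comparison are given 5′ to 3′ with the seed, bases 2 to 8, in capitals. They were read from RefSeq (GRCm38.p6), which held an entry under the name and arm for 18 of 23 assays looked up. The first set shows that 4 members of the miR-34 and miR-449 family have 1 seed, while the opposite arm of the miR-34b hairpin, miR-34b-3p, has another.
miR-34a: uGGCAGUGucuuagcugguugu
miR-34b-5p: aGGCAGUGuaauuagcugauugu
miR-449a: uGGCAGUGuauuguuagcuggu
miR-449c: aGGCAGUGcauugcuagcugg
miR-34b-3p: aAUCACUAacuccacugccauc
The second set is the miR-29 family, whose 3 members share a seed and differ at bases outside it.
miR-29a: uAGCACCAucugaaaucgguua
miR-29b: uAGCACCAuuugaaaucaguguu
miR-29c: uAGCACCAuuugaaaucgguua
The third set holds the other miRNAs counted as higher at PTD 3 that had an entry, and no seed in it occurred more than 1 time.
miR-133b: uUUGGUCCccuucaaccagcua
miR-294*: aCUCAAAAuggaggcccuaucu
miR-770-5p: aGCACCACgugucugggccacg
miR-700: cACGCGGGaaccgaguccacc
miR-21*: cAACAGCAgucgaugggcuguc
The last set is a pair of miRNAs with low values in the same 3 arrays of PTD 3, which have different seeds.
miR-302c*: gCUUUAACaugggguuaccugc
miR-883b-5p: uACUGAGAauggguagcaguca

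In the annotation of GRCm38.p6, Mir34a lay at chr4:150068454-150068555 and within no other gene. Mir34b (chr9:51103562-51103645) and Mir34c (chr9:51103034-51103110) lay next to each other on the minus strand, within the bounds of Btg4 and Hoatz, and Mir449a (chr13:113037534-113037624) and Mir449c (chr13:113035983-113036091) lay within Cdc20b. Mir29a (chr6:31062660-31062747) and Mir29b-1 (chr6:31063023-31063093) were neighbours outside any other gene. Mir133b (chr1:20682769-20682887) lay within the noncoding RNA Lincmd1, Mir770 (chr12:109563692-109563785) within the imprinted noncoding RNA Meg3 and Mir21a (chr11:86584067-86584158) within Vmp1. The table used gives gene bounds and not exons, so exonic and intronic positions were not told apart.

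Each array held assays for 376 miRNAs and for 4 reference small RNAs, snoRNA251, snoRNA202, snoRNA142 and U6. The measured value is the threshold cycle (Ct), counted when a well's fluorescence passes a fixed line, and an earlier Ct means more RNA. The level of a miRNA is given as -ΔCt, the mean Ct of the 4 reference RNAs minus the Ct of the miRNA on the same array, which is a log2 scale with higher values for more RNA. A difference is the mean level at PTD 3 minus that at PTD 1, on the same log2 scale, with its standard error (SE) and p from limma fitted to all 376 miRNAs. A miRNA was counted as a differentially expressed miRNA (DEM) when the unadjusted p was under 0.01 and the fold change above 2. Arrays of real-time PCR have no read depth, and their number limits the precision.

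The arrays differed in ways other than the day, and these are given before the results. Replicates 1 to 3 of PTD 1 were run together on 1 day, replicate 5 of PTD 1 was run on the same day as replicates 1 to 4 of PTD 3, replicate 5 of PTD 3 was run on the following day, and replicate 4 of PTD 1 was run in a later period. In replicate 3 of PTD 3 the deposited Ct values did not match the study's own table of ΔCt, and without that array 8 DEMs, defined above, were counted in place of the 11 given below, 7 of them shared. Averaged over the 4 reference RNAs, the Ct in arrays of PTD 1 was 21.6 ± 0.483 (SD, n = 5) and in arrays of PTD 3 it was 22.1 ± 0.421 (SD, n = 5) (exact permutation test, two-sided, p = 0.135). Each of the 4 reference RNAs had the later mean Ct at PTD 3, by 0.282 to 0.722 cycles. The mean Ct of the abundant miRNAs, by contrast, was earlier at PTD 3, 21.2 against 21.5 cycles (exact permutation test, p = 0.143). The positive PCR control wells had mean Ct values of 19.5 and 19.4 cycles. The first minus the second of the pair of reverse transcription control wells was between -0.280 and -0.0199 cycles in the arrays of PTD 1, -0.285 and -0.191 in replicates 1 and 2 of PTD 3, and between 0.147 and 0.173 in replicates 3 to 5 of PTD 3. The liver label was checked against its markers, and miR-122 had a mean Ct of 14.6, the earliest of the 376.

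Between PTD 1 and PTD 3, 11 of 376 miRNAs (2.93%) were counted as DEMs, 9 of them higher (2.39%) and 2 lower (0.532%) at PTD 3. Those higher were, in order of size, miR-294*, miR-133b, miR-21*, miR-150, miR-770-5p, miR-700, miR-29a, miR-34a and miR-467c, with fold changes between 2.10 and 5.53. Those lower were miR-684, by a fold change of 19.3, and miR-880, by 4.12. No miRNA had a Benjamini-Hochberg adjusted p under 0.05 in this limma fit (2 did in 1 fit of all 35 arrays and 1 with the replicate number as a block), and the 11 DEMs had adjusted p values from 0.145 to 0.311. At an unadjusted p under 0.05 there were 56 miRNAs (14.9%), 45 higher (12%) and 11 lower (2.93%). Every array of PTD 3 was above every array of PTD 1 for 8 miRNAs (2.13%), namely miR-99b and all the higher DEMs other than miR-21* and miR-29a, and no miRNA had every array below. For such a miRNA the exact permutation test over the 252 splits of the arrays gives its smallest possible two-sided p, 0.00794.

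**Figure D1:**
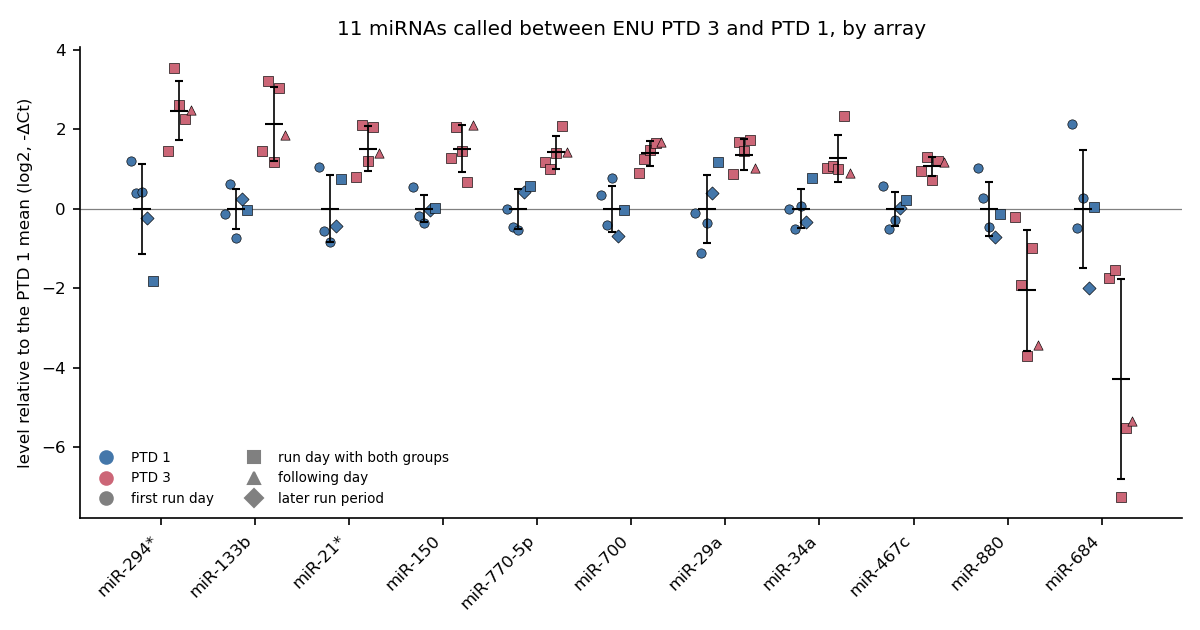
Levels of the 11 DEMs in each array (y axis, log2 -ΔCt minus the mean of PTD 1), with PTD 1 in blue and PTD 3 in red, run days as marker shapes, and bars for the mean ± SD of 5 arrays. The 7 higher miRNAs other than miR-21* and miR-29a have no overlap between the groups, while miR-880 and miR-684 overlap.

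The differences over all miRNAs were not centred on 0. Their median was 0.47, and 259 of 376 (68.9%) were above 0. The median difference was smaller in each later class of Ct up to 35, with 0.88 in the 27 miRNAs up to a mean Ct of 20 (27 above 0), 0.74 in the 58 up to a Ct of 25 (57 above 0), 0.43 in the 116 up to 30 (90 above 0) and -0.06 in the 168 up to 35 (80 above 0). The 7 miRNAs with a mean Ct above 35 went against that order, with a median of 0.84 (5 above 0). When the mean Ct of 83 abundant miRNAs took the place of the reference RNAs, the median of all miRNAs moved by -0.77 to -0.30. These 83 had a mean Ct of at most 25 and include members of the lists below. This reference sets abundant miRNAs near 0 by design, with medians of 0.11 up to a Ct of 20 and -0.03 between 20 and 25. For lists of abundant miRNAs it is therefore no independent check. That reference counted 12 DEMs, of which none was higher and 12 were lower at PTD 3, against 9 higher and 2 lower with the reference RNAs, and miR-684 and miR-880 were the DEMs shared by both. Within the run day that held both groups, 4 arrays of PTD 3 against 1 of PTD 1, the median of all miRNAs was -0.052. Every one of the 11 DEMs kept its sign under both of these settings. Within that run day 4 DEMs were counted and with the run day as a block 3, and in each case miR-294* was the only one of the 11 among them. That fit rests on a single PTD 1 array whose spread is assumed to equal that of the others, so a call lost in it does not by itself show a smaller difference. The differences themselves are given below.

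**Figure D2:**
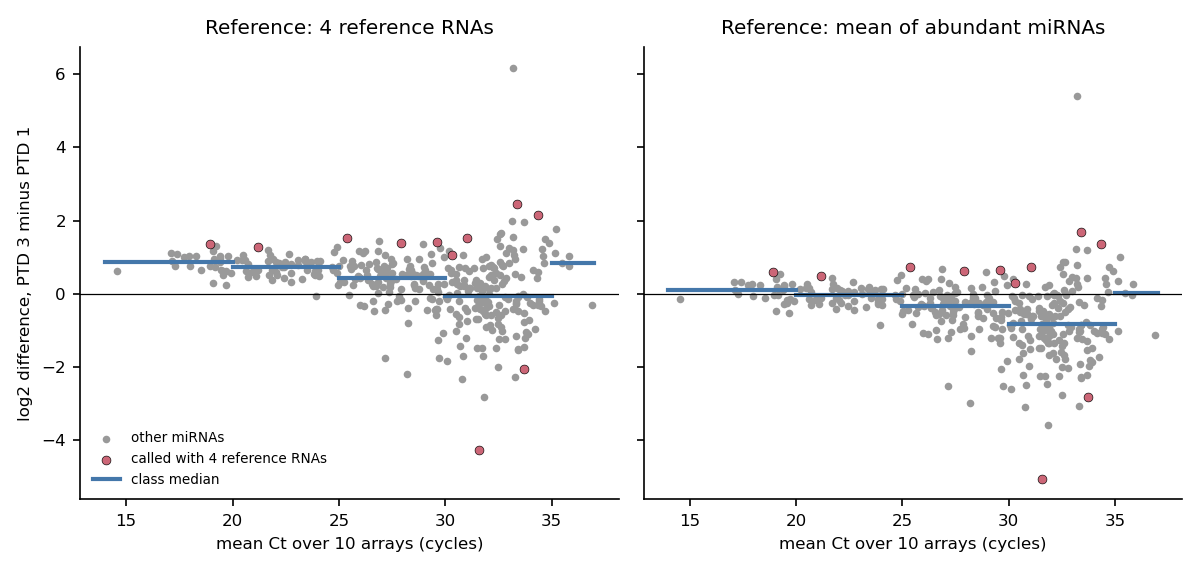
Difference between PTD 3 and PTD 1 (y axis, log2) against the mean Ct over the 10 arrays (x axis, cycles) for 376 miRNAs, with ΔCt from the 4 reference RNAs (left) or from the mean of 83 abundant miRNAs (right). DEMs of the left panel are red in both and blue lines are medians by class of Ct, which fall from 0.88 at a Ct up to 20 to -0.06 between 30 and 35 on the left, with 0.84 for the 7 miRNAs above 35.

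miR-34a, the p53-induced member of the family with the earliest Ct (mean 21.2), had levels of -0.0014, -0.49, 0.086, -0.33 and 0.78 in replicates 1 to 5 of PTD 1 and of 1.03, 1.08, 1.02, 2.35 and 0.91 in those of PTD 3. All PTD 3 arrays were above all PTD 1 arrays, and replicate 4 of PTD 3 stood above the other four. The difference was 1.27 ± 0.40 (SE), a fold change of 2.41 (limma p = 0.00790, adjusted p = 0.311, exact permutation p = 0.00794). It was 0.59 within the run day that held both groups and 0.50 with the abundant miRNAs as reference. Leaving out 1 array at a time kept the call in 1 of 10 fits, that without replicate 5 of PTD 1, with differences from 1.00 to 1.46 and limma p values up to 0.0199.

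The other mature miRNAs of the miR-34 genes with that seed had differences of like size that did not pass the DEM threshold. miR-34b-5p had levels of -5.44, -5.72, -5.13, -4.56 and -4.13 at PTD 1 and -3.94, -3.86, -3.81, -2.76 and -4.72 at PTD 3, where only replicate 5 lay within the range of PTD 1. Its difference was 1.18 ± 0.45 (SE, n = 5 and 5, limma adjusted p = 0.311), with 0.53 within the shared run day. miR-34c, made from the same primary transcript as miR-34b, had levels of -8.12, -9.57, -8.61, -8.56 and -8.01 and of -7.91, -7.28, -7.28, -6.11 and -8.02, with a difference of 1.25 ± 0.45 (adjusted p = 0.311 in limma) and 0.86 within the shared run day. In all 3 of these miRNAs the highest level of PTD 3 was that of replicate 4. The opposite arm, miR-34b-3p, whose seed differs, had a difference of -0.62 ± 0.49 (limma adjusted p = 0.436) and overlapping groups.

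The miR-449 members, which share the seed of miR-34a and are best known from ciliated epithelia and testis, were near the limit of detection in part. miR-449a, at a mean Ct of 33.2, had levels of -11.69, -11.87, -13.19, -10.87 and -12.10 at PTD 1 and -11.35, -10.64, -10.93, -9.41 and -11.39 at PTD 3, a difference of 1.20 ± 0.51 (limma adjusted p = 0.311). For miR-449b the difference was 0.023 ± 0.36 and for miR-449c 0.26 ± 0.41, both with overlapping groups, and both turned below 0 within the shared run day (-0.29 and -0.40) and with the abundant miRNAs as reference. Of the 7 family members measured, 1 was a DEM, 4 had an unadjusted limma p under 0.05, all higher at PTD 3, and 6 were above 0, beside shares of 2.93%, 14.9% and 68.9% over all miRNAs. The family's median difference was 1.18, with 0.53 within the shared run day and 0.41 with the abundant miRNAs as reference. For all miRNAs the medians were 0.47, -0.052 and -0.30 in the same order.

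For context, with no test, the level of miR-34a was -1.05 ± 0.50 (SD, n = 3) in DMSO mice of day 1 and -1.38 ± 0.37 (SD, n = 4) in those of day 30, and all 7 DMSO arrays were below every array of PTD 1 and PTD 3. After ENU, the mean of miR-34a went from 0.0094 on day 1 to 1.28 on day 3 and 1.54 on day 15, and lay at 0.74 on day 30 and -0.53 on day 120. On day 7 the median was 1.56, with 1 array at -2.51. miR-34b-5p had means of -6.22 and -6.10 in the DMSO groups, and of -4.99, -3.82 and -3.15 on days 1, 3 and 7 after ENU. For miR-34a, miR-34b-5p and miR-34c the highest group means came later than PTD 3, on days 15, 7 and 7. All arrays of PTD 30, PTD 120 and DMSO day 30 were run in later periods than those of PTD 3.

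miR-150, which is enriched in mature lymphocytes and represses the transcription factor Myb, had levels of -3.78, -4.51, -4.67, -4.34 and -4.29 at PTD 1 and of -3.05, -2.26, -2.86, -3.63 and -2.21 at PTD 3, and the groups did not overlap. The difference was 1.51 ± 0.38 (SE, fold change 2.86, limma p = 0.00161, adjusted p = 0.151, exact permutation p = 0.00794). It was 1.34 within the shared run day, 1.66 among arrays with a negative reverse transcription control difference and 0.74 with the abundant miRNAs as reference, and the call held in all 10 fits without 1 array. The call was lost with the abundant miRNAs as reference, among arrays with a negative control difference (5 against 2) and in the fits with the run day (1 array of PTD 1), with limma p values up to 0.152. The mean level was -3.25 in DMSO mice of day 1 and -2.11 in those of day 30. All 5 arrays of PTD 1 (-4.67 to -3.78) were below the lowest DMSO array (-3.28), and the mean at PTD 3 (-2.80) lay between the means of the DMSO groups.

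Of the 10 members of the immune cell list, miR-150 was the 1 DEM, 2 had a p under 0.05 and 8 were above 0 (2.93%, 14.9% and 68.9% over all miRNAs), with a median difference of 0.62, which turned to -0.096 within the shared run day and to -0.15 with the abundant miRNAs as reference. miR-142-3p, expressed throughout the haematopoietic lineage, had levels of -1.05, -2.54, -1.97, -1.25 and -0.18 at PTD 1 and 0.069, 0.39, -0.56, -0.62 and -0.76 at PTD 3, with overlapping groups and a difference of 1.10 ± 0.47 (adjusted p = 0.311, limma) that was -0.0031 within the shared run day. The mean level over the list was between -5.60 and -4.08 at PTD 1 and between -4.51 and -3.74 at PTD 3. The erythroid miRNAs, markers of blood in the tissue, had a median of -0.17, with -0.28 ± 0.53 for miR-144 and 0.29 ± 0.55 for miR-451 (limma adjusted p = 0.751 for both), and these signs changed between settings.

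miR-133b, a miRNA of skeletal and heart muscle made beside miR-206, was among the DEMs with the largest difference. Its levels were -13.72, -12.97, -14.34, -13.34 and -13.62 at PTD 1 and -12.16, -10.39, -12.43, -10.56 and -11.74 at PTD 3, and the groups did not overlap. The difference was 2.14 ± 0.48 (SE, fold change 4.42, limma p = 0.000614, adjusted p = 0.145, exact permutation p = 0.00794), with 2.24 within the shared run day and 1.37 with the abundant miRNAs as reference. The mean Ct was 34.4, late in the 40 cycles. miR-133a, from other genes but with a nearly identical sequence, had levels of -10.66, -12.27, -10.99, -12.01 and -10.98 and of -11.29, -8.91, -10.16, -9.75 and -10.29, with a difference of 1.30 ± 0.49 (limma adjusted p = 0.311), and the assays may not separate the pair. Of the 5 muscle miRNAs, 1 was a DEM, 3 had a p under 0.05 and 4 were above 0, where the shares over all miRNAs were 2.93%, 14.9% and 68.9%. Their median was 1.30, with 1.51 within the shared run day and 0.53 with the abundant miRNAs as reference. The mean level over the muscle list went from -12.22 to -10.81 at PTD 1 and from -11.17 to -10.17 at PTD 3.

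miR-29a, whose family lowers collagens and other matrix proteins, had levels of 2.11, 1.08, 1.84, 2.61 and 3.38 at PTD 1 and of 3.07, 3.89, 3.67, 3.95 and 3.24 at PTD 3, where the groups overlapped through replicate 5 of PTD 1. The difference was 1.36 ± 0.45 (SE, fold change 2.56, limma p = 0.00949, adjusted p = 0.311, exact permutation p = 0.0238). It was 0.26 within the shared run day. The same-seed members had 1.15 ± 0.46 for miR-29b and 1.05 ± 0.46 for miR-29c, with limma p values of 0.0276 and 0.0412 and adjusted p values of 0.311 and 0.311. All 3 members thus had a p under 0.05 (14.9% over all miRNAs), with a median of 1.15. That median was -0.044 within the shared run day, where replicate 5 of PTD 1 is the only PTD 1 array, and 0.37 with the abundant miRNAs as reference. The call of miR-29a held in 2 of 10 fits without 1 array.

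miR-21*, the less abundant arm of the miR-21 hairpin, had levels of -8.91, -10.52, -10.80, -10.40 and -9.22 at PTD 1 and of -9.17, -7.86, -8.77, -7.91 and -8.56 at PTD 3, with overlapping groups. The difference was 1.52 ± 0.46 (SE, fold change 2.86, limma p = 0.00629, adjusted p = 0.311, exact permutation p = 0.0159) and was 0.79 within the shared run day. The list of miR-21, miR-155 and miR-210, which respond to growth, inflammation or hypoxia, had a median of 0.81 over 4 assays (0.43 within the shared run day and 0.042 with the abundant miRNAs as reference). The main arm, miR-21, a miRNA induced in many growing and inflamed tissues, had a difference of 1.11 ± 0.48 (limma adjusted p = 0.311) at a mean Ct of 17.1, with 0.72 and 0.34 under the same settings. The call of miR-21* held in 4 of 10 fits without 1 array.

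A further 4 DEMs were higher at PTD 3, each from a larger cluster or series of miRNAs. miR-770-5p, of the imprinted Dlk1-Dio3 region, had levels of -8.51, -8.96, -9.03, -8.07 and -7.94 at PTD 1 and -7.32, -7.50, -7.09, -6.43 and -7.08 at PTD 3 without overlap, and a difference of 1.42 ± 0.37 (SE, fold change 2.67, limma adjusted p = 0.167, exact permutation p = 0.00794). It was 1 DEM among 44 miRNAs of that region (2.93% over all miRNAs), whose median difference was 0.026 with 22 above 0 (68.9% over all miRNAs), and the next by p, miR-134, had 1.65 ± 0.57 (adjusted p = 0.311, limma). miR-700 had levels of -6.44, -7.18, -6.01, -7.47 and -6.80 at PTD 1 and -5.87, -5.53, -5.31, -5.13 and -5.09 at PTD 3, again without overlap, with a difference of 1.40 ± 0.38 (SE, fold change 2.63, limma adjusted p = 0.168, exact permutation p = 0.00794). The series miR-676 to miR-721, which also holds miR-684, had a median of 0.031 over 29 miRNAs. Within the shared run day, the differences of miR-770-5p and miR-700 were 0.86 and 1.34, and with the abundant miRNAs as reference they were 0.65 and 0.63.

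miR-294*, from the miR-290 cluster of embryonic stem cells, had levels of -11.59, -12.39, -12.36, -13.02 and -14.62 at PTD 1 and -11.34, -9.26, -10.19, -10.54 and -10.30 at PTD 3, without overlap and at a mean Ct of 33.4. Its difference was 2.47 ± 0.56 (SE, fold change 5.53, limma adjusted p = 0.145, exact permutation p = 0.00794). It was 1.70 with the abundant miRNAs as reference and 4.29 within the shared run day, where the single PTD 1 array, replicate 5, held its lowest level. Of the 13 miRNAs of the miR-290 and miR-302 clusters measured, 5 were above 0 (68.9% over all miRNAs), with a median of -0.32. miR-467c, of the large cluster in an intron of Sfmbt2, had levels of -8.46, -9.55, -9.32, -9.00 and -8.82 and of -8.08, -7.73, -8.31, -7.83 and -7.85 without overlap and the smallest difference of the DEMs, 1.07 ± 0.34 (SE, fold change 2.10, limma adjusted p = 0.311, exact permutation p = 0.00794). It was 0.83 within the shared run day and 0.30 with the abundant miRNAs as reference. Its call held in 1 of 10 fits without 1 array, while those of miR-294*, miR-133b, miR-150, miR-770-5p, miR-700 and miR-684 held in all 10. The assays of the Sfmbt2 cluster target near-identical miRNAs, which they may not separate, and miR-669b had 0.86 ± 0.44. Of the 16 members 11 were above 0, a share like the 68.9% of all miRNAs, and their median of 0.67 fell below 0 under the other settings (-0.28 within the shared run day and -0.10 with the abundant miRNAs as reference). For context, with no test, DMSO means are given for day 1 and day 30 in that order. They were -12.89 and -9.84 for miR-294*, -8.67 and -6.79 for miR-770-5p, and -9.03 and -7.55 for miR-467c. Further pairs were -9.98 and -7.88 for miR-21*, and 1.96 and 3.24 for miR-29a. For miR-133b and miR-700 they were -12.99 and -12.06, and -5.88 and -5.31. Each of these means was higher on day 30, whose arrays were run in later periods.

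The abundant miRNAs of hepatocytes and of other liver cells had differences near those of other abundant miRNAs, nearly all of which were above 0. miR-122 had levels of 7.58, 6.13, 6.60, 6.95 and 7.46 at PTD 1 and of 6.70, 8.14, 7.39, 8.05 and 7.54 at PTD 3, a difference of 0.62 ± 0.42 (limma adjusted p = 0.378) that was 0.10 within the shared run day and -0.15 with the abundant miRNAs as reference. miR-192, which like miR-34a is induced by p53 in some cells, had 1.09 ± 0.45, and miR-215, with the same seed, had 1.44 ± 0.59 (limma adjusted p = 0.311 for both). With miR-194, the median of these was 1.09 (0.36 within the shared run day and 0.32 with the abundant miRNAs as reference). The 5 hepatocyte miRNAs had a median of 1.03, with 1.03 ± 0.45 for miR-148a, and medians of 0.36 and 0.26 under the same pair of settings. For the 9 members of the let-7 family, which restrain growth in differentiated cells, the median was 0.99 with 9 above 0, 2 of them (let-7i, 1.19 ± 0.47, and let-7g, 1.30 ± 0.55) with a p under 0.05 (14.9% over all miRNAs). That median was -0.018 within the shared run day and 0.22 with the abundant miRNAs as reference. The 13 members of the miR-17-92 and paralogous clusters, which favour proliferation, were all above 0 with a median of 0.73, none with a p under 0.05 (68.9% and 14.9% over all miRNAs). The pair with the smallest p were miR-19b at 0.93 ± 0.44 and miR-20b at 0.85 ± 0.41. The median of these clusters was 0.35 within the shared run day and -0.036 with the abundant miRNAs as reference.

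Endothelial miRNAs had a median of 1.02, with 1.03 ± 0.47 for miR-126-3p and 1.02 ± 0.47 for miR-126-5p. Stromal and stellate cell miRNAs had 0.66, with examples in miR-10a (0.94 ± 0.45) and miR-10b (0.90 ± 0.45), and biliary epithelial miRNAs had 0.60, with examples in miR-141 (1.09 ± 0.48) and miR-31 (0.78 ± 0.40). The miR-15 and miR-16 family had 0.76 (miR-15a 0.94 ± 0.42, miR-322 0.89 ± 0.49), the miR-23, miR-27 and miR-24 clusters 0.62 (miR-27a 0.94 ± 0.45, miR-24 0.66 ± 0.42), and the miR-30 family 0.51 (miR-30c 0.62 ± 0.33, miR-30e 0.74 ± 0.41). The pair miR-221 and miR-222, which lower cell cycle inhibitors, had 0.76 ± 0.39 and 0.51 ± 0.38. With the abundant miRNAs as reference, which holds several of these miRNAs, the endothelial median stayed above 0 at 0.25. The other 6 medians turned below 0, between -0.26 and -0.011. Within the shared run day the endothelial median was 0.33 and the others lay between -0.15 and 0.24.

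Other lists had medians near or below 0 with the reference RNAs. The medians were 0.19 for the miR-130 and miR-301 family (miR-301a 0.70 ± 0.45, miR-301b 0.42 ± 0.43) and 0.14 for the miR-182, miR-183 and miR-96 cluster (miR-96 0.33 ± 0.51, miR-183 0.14 ± 0.52). In the former 2 of 4 members were above 0 and the lowest was at -0.071. In the latter 2 of 3 were above 0 and the lowest was at -0.054. The brain miRNAs had 0.075, where miR-137 (1.12 ± 0.46) and miR-9* (-1.998 ± 0.84) went in opposite directions. The 4 pancreas miRNAs had -0.93, with -1.20 ± 0.58 for miR-216b and -0.90 ± 0.50 for miR-217. Of these 4, 1 was above 0, at 0.48 (68.9% above 0 over all miRNAs). Within the shared run day the medians of these 4 lists, in the order given, were -0.56, -0.75, -0.57 and -1.11, and with the abundant miRNAs as reference -0.58, -0.63, -0.70 and -1.70.

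**Figure D3:**
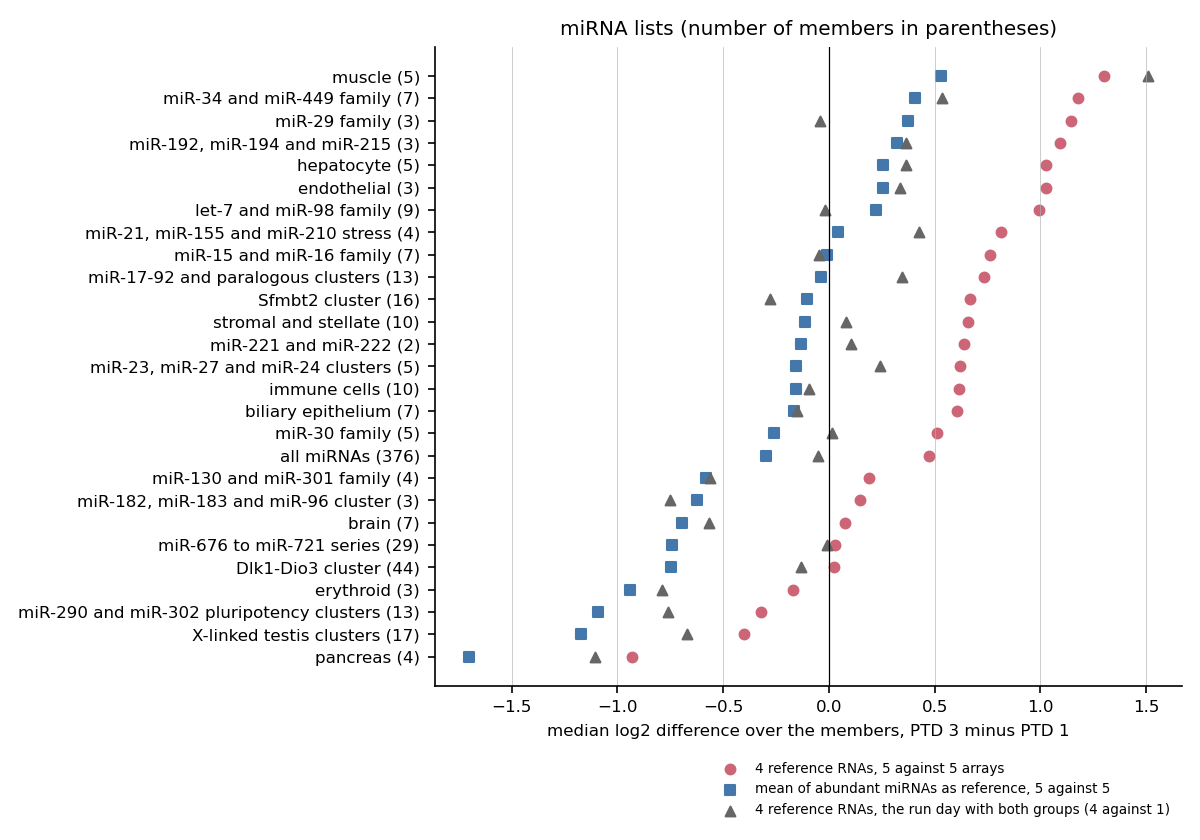
Median difference between PTD 3 and PTD 1 (x axis, log2) over the members of 26 miRNA lists and over all 376 miRNAs, with the 4 reference RNAs (red circles), with the mean of 83 abundant miRNAs as reference (blue squares) and within the run day that held both groups (grey triangles). Most red circles are above 0, while all miRNAs together move from 0.47 to -0.30 and -0.052 under the other settings.

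miR-684 had the largest lower value of the comparison. Its levels were -5.47, -8.10, -7.35, -9.61 and -7.56 at PTD 1 and -9.35, -9.17, -14.86, -13.13 and -12.95 at PTD 3, where replicates 1 and 2 lay within the range of PTD 1 and replicates 3 to 5 lay below it. The difference was -4.27 ± 1.07 (SE, limma p = 0.00161, adjusted p = 0.151, exact permutation p = 0.0238), with -4.07 within the shared run day and -5.04 with the abundant miRNAs as reference. Without 1 array at a time it lay between -4.95 and -3.53, with -4.95 and -4.91 without replicates 2 and 1 of PTD 3 and -3.53 without replicate 3 of PTD 3. miR-880, an X-linked miRNA known from testis, had levels of -9.85, -10.61, -11.34, -11.57 and -11.01 at PTD 1 and of -11.07, -12.78, -14.58, -11.85 and -14.30 at PTD 3, with a difference of -2.04 ± 0.66 (SE, limma p = 0.00848, adjusted p = 0.311, exact permutation p = 0.0238), and its call held in 3 of 10 fits without 1 array. Within the shared run day the difference of miR-880 was -1.56. Neither miR-684 nor miR-880 was counted by the methods' t-test, which leaves the differences as they are, or in the fits with the run day, which rest on 1 array of PTD 1. The 17 miRNAs of the X-linked testis clusters had a median of -0.40, with 1 DEM and 6 above 0 (2.93% and 68.9% over all miRNAs), and that median was -1.17 with the abundant miRNAs as reference and turned to 0.11 among arrays with a negative control difference. miR-470 of the same list had 1.22 ± 0.45 (limma adjusted p = 0.311).

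Most of the 11 miRNAs lower at PTD 3 with a p under 0.05 had their low values in the same 3 arrays. Besides the DEMs and miR-9* they were miR-302c*, miR-883b-5p, miR-135b, miR-876-5p, miR-875-5p, miR-871, miR-453 and miR-710, with mean Ct values between 28.2 and 33.7. In 9 of the 11, replicates 3 to 5 of PTD 3 were all below replicates 1 and 2, which was so for 76 of all 376 miRNAs. miR-302c* had levels of -4.53, -5.61, -5.18, -6.06 and -4.98 at PTD 1, -5.57 and -5.09 in replicates 1 and 2 of PTD 3, and -9.52, -8.05 and -9.14 in replicates 3 to 5, a difference of -2.20 ± 0.80 (limma adjusted p = 0.311). miR-883b-5p had -6.95, -9.27, -8.23, -9.88 and -8.68 at PTD 1 and -8.62, -8.36, -12.96, -13.67 and -13.47 at PTD 3, a difference of -2.81 ± 1.07 (adjusted p = 0.311, limma). In both, replicates 3 to 5 of PTD 3 were also below every array of PTD 1.

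Replicates 3 to 5 of PTD 3 were the arrays in which the difference of the reverse transcription control wells was above 0. When only arrays with a negative difference were compared, 5 against 2, the difference of miR-684 was -1.64, that of miR-880 -1.05, that of miR-302c* -0.057, that of miR-135b 0.11 and that of miR-883b-5p 0.11, and the median of the 11 moved from -2.04 to -0.62. The comparison then counted 2 DEMs, both higher at PTD 3. With the control difference as a covariate it counted 5 DEMs, 3 higher and 2 lower. The sign of the control difference also varied in other groups: it was above 0 in 4 of 5 arrays at PTD 7 and 3 of 5 at PTD 15, where mean levels of miR-684 were -13.36 and -12.70, and in 0 of 4 at PTD 30 and 0 of 4 at PTD 120, where they were -7.08 and -6.97. In the DMSO mice of day 30 it was above 0 in 2 of 4 arrays, where miR-684 was at -10.53 and -12.09, against -8.01 and -7.19 in the others. Single arrays did not all follow that order. At PTD 7 miR-684 was at -10.997 in the array with a negative difference and between -15.01 and -13.44 in the others, but at PTD 15 it was at -13.46 and -12.91 in the arrays with a negative difference, at -13.64 and -10.78 in a pair with a positive one, and Undetermined in the last array. The part of reverse transcription in these values was not tested.

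**Figure D4:**
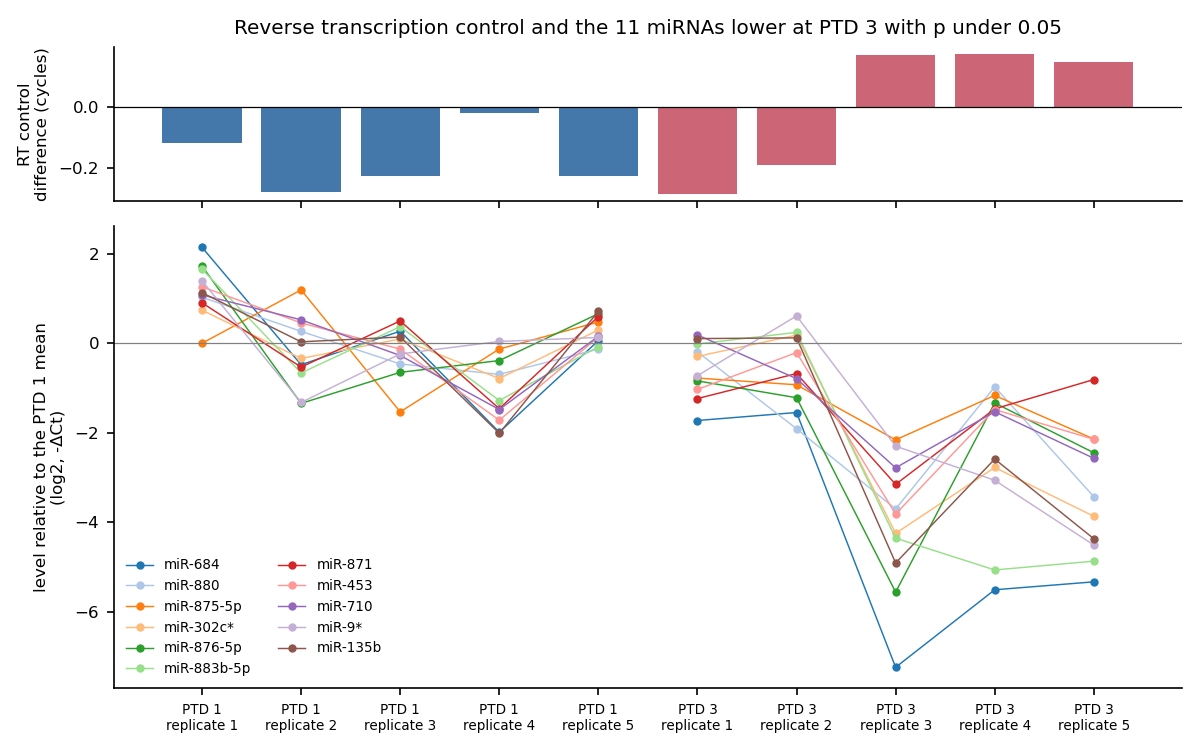
Top, Ct of the first minus that of the second reverse transcription control well in each of the 10 arrays (y axis, cycles). Bottom, levels of the 11 miRNAs lower at PTD 3 with p under 0.05, relative to their PTD 1 mean (y axis, log2 -ΔCt); in 9 of the 11 the lowest PTD 3 values lie in replicates 3 to 5, the arrays with a control difference above 0.

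The largest fitted difference belonged to a miRNA that was not counted, and it rests on 1 well. miR-876-3p, named after its values were seen, had levels of -13.81, -14.64, -14.23, -15.42 and -14.21 at PTD 1 and -14.80, -13.12, -13.71, -12.15 and 12.39 at PTD 3, so that its difference of 6.18 ± 4.11 (limma adjusted p = 0.378) came from replicate 5 of PTD 3. The Ct of that well was 9.78, earlier than miR-122 on any of the 10 arrays, and an error of the well was not tested. Without that array the difference was 1.01. miR-99b, the only miRNA without overlap that was not a DEM, had a difference of 0.68 ± 0.33, under the fold limit.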

How the data were processed

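Small RNA of 1 mouse liver was measured on each array. The authors deposited the Ct of every well, set by the instrument software at a fixed fluorescence threshold of 0.15, without normalization and in cycles. Other values were computed from these Ct values. -ΔCt used the mean of the 4 reference RNAs, as in the study's methods. Wells were named by the study's list, and 6 Undetermined wells in 4 of the 10 arrays were treated as missing. For 34 of 35 arrays, ΔCt from the deposited Ct matched the study's own table within 0.001 cycles at the median. Replicate 3 of PTD 3 did not, and results without it are among the alternatives.

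The groups were compared in limma (version 3.58.1, R 4.3.3), two-sided, without covariates, and by an exact permutation test over 252 splits. The study's methods used a t-test. Tests were run on simulated data first. The miRNAs and the 26 lists were chosen with earlier results of these data known. Named were DEMs (up to 15 per direction), the miR-34 and miR-449 family, the 2 members of every other list with the smallest p, miR-122 and the reference RNAs. Outside that rule, miR-883b-5p, miR-135b, miR-876-5p, miR-876-3p, miR-99b and miR-29c, and the miRNAs listed as lower with them, were named after their values were seen. Alternatives changed the reference, missing wells, test, covariates and arrays. The run day as a block, the run day with both groups alone and the abundant miRNAs as reference were chosen after seeing the data.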

Additional observations from a re-analysis of the deposited data

Results flagged for a closer look

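In 6 of the 132 sets of 5 (or 4) values examined for the named miRNAs and the reference RNAs, 1 array lay far from the others of its group, by Dixon's test at 95%, which chance gives in about 5% of sets. miR-34a was 2.35 in replicate 4 of PTD 3, where the others were between 0.91 and 1.08. miR-31 was -1.60 in replicate 1 of PTD 3, below the -0.81 to -0.50 of the others. miR-29b was -2.11 in replicate 5 of PTD 1, above the -4.13 to -3.60 of the others. miR-876-3p was 12.39 in replicate 5 of PTD 3, where the others were between -14.80 and -12.15.

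The reference snoRNA202 had a Ct of 21.2 in replicate 4 of PTD 1, against 22.9 to 23.4 in the others, and of 20.8 in replicate 1 of PTD 3, more than 2 cycles before any other array of PTD 3. Without snoRNA202 among the references, 8 DEMs were counted, 7 higher and 1 lower. Without replicate 1 of PTD 3, 19 were counted, and without replicate 4 of PTD 1, the array of the later run period, 12.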

How the results depend on the processing

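The count of 11 DEMs depended on most choices. It was 17 with the median Ct of the array as reference (9 higher), 6 without snoRNA251 (4 higher), 7 without snoRNA142 (5 higher), 7 by the methods' t-test (7 higher), 0 with an adjusted p under 0.05, 23 in 1 fit of all 35 arrays (15 higher), 5 with the reverse transcription control difference as a covariate (4 of the 11), 2 with negative differences alone (2 of the 11), 3 with the run day as a block (1 of the 11) and 4 within the shared run day (1 of the 11). Without 1 array at a time it was 6 to 19, with 6 without replicate 2 of PTD 1, 19 without replicate 1 of PTD 3 and 8 without replicate 3 of PTD 3, which kept 7 of the 11. It was 12 without the array of the later run period, 7 higher and 5 lower, of which 7 were among the 11. With the abundant miRNAs as reference it was 12 (0 higher, 2 of the 11). It was 12 without U6, 12 with Ct capped at 35, 11 with Undetermined wells at 40 cycles and 10 of 201 with a mean Ct of at most 30. The replicate number as a block gave 12 DEMs, 6 higher and 6 lower, 5 of them among the 11. Same-numbered mice are different animals, and the correlations of their deviations from the group means were 0.17, 0.15, -0.16, 0.38 and -0.02. Of the arrays of PTD 1, 0 of 5 correlated best with its own number. The labels give no link beyond the number, and a shared step of processing was not tested.

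For 62 named miRNAs, 1428 of 1653 values under the alternatives kept their sign and call, 113 lost the call, 47 gained it and 65 changed sign, none of a DEM. The sign changed within the shared run day, and equally with run day as a block, for miR-34b-3p 0.13, miR-449b -0.29, miR-449c -0.40, miR-142-3p -0.0031, miR-451 -0.79, miR-141 -0.15, miR-31 -0.12, miR-15a -0.045, miR-221 -0.081, miR-29b -0.11, miR-301a -0.27, miR-301b -0.45, miR-96 -0.75 and miR-183 -0.89. It changed with the abundant miRNAs as reference for miR-449b -0.75, miR-449c -0.51, miR-451 -0.48, miR-221 -0.0075, miR-222 -0.26, miR-30c -0.15, miR-30e -0.027, miR-301a -0.067, miR-301b -0.35, miR-24 -0.28, miR-96 -0.44, miR-183 -0.63, miR-122 -0.15 and miR-99b -0.095, with the control difference as a covariate for miR-449b -0.11, miR-449c -0.15, miR-144 0.18 and miR-183 -0.035, with negative differences alone for miR-449c -0.39, miR-144 0.44, miR-183 -0.057, miR-883b-5p 0.11 and miR-135b 0.11, with the median Ct for miR-449b -0.052, without snoRNA251 for miR-449b -0.063, without snoRNA142 for miR-449b -0.011 and without the array of the later run period for miR-183 -0.036. Without 1 array at a time it changed for 4 miRNAs, whose values ranged for miR-449b -0.15 to 0.20, miR-144 -0.50 to 0.14, miR-451 -0.044 to 0.61 and miR-183 -0.11 to 0.41. The cause was not tested.

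miR-24 has no value in the shared run day, where its well in the PTD 1 array was Undetermined. In that day PTD 1 is 1 array, whose spread is assumed to equal that of the others. Late Ct values limit what can be seen at PTD 3, where the median SD was 0.46 up to a Ct of 20 and 0.97 between 30 and 35. Within PTD 1 the median SD hardly differed between the same classes, 0.86 and 0.89.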
